A study of Homo sapiens with 8 samples.

Results

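The SR and hnRNP splicing factor genes of HCT-116 cells, together with the core spliceosome and kinase genes that work with them, were followed on 8 one-colour expression arrays. Members were chosen by gene symbol alone: every probe for an SRSF gene, an HNRNP gene, an SF3A or SF3B subunit, CLK1 to CLK4, a PRPF gene or a U2AF gene, which gave 107 of the 50599 probes on the array and 63 genes. Of these, 102 probes of 61 genes passed the filter on dim probes, and every one of the 102 was well above background on all 8 arrays. The 5 probes left out were those of SRSF12 and HNRNPKP3, a pair of HNRNPH1 probes and 1 SF3B2 probe.

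HCT-116 is a human colorectal cancer cell line. The groups were untreated parental cells (WT), parental cells given 20 µM of the CDK1/CDK2 inhibitor NU6102 for 24 h (WT+NU6102), untreated cells with both copies of CDK2 deleted (CDK2-/-), and R50, a derivative selected for resistance and kept in 50 µM NU6102, with 2 replicates in each. All came from the same parental line, and only 1 CDK2-/- line and 1 R50 line were measured, so features of a line cannot be told apart from its genotype or resistance. WT and WT+NU6102 shared 1 slide, CDK2-/- and R50 shared the other, so that comparisons of CDK2-/- or R50 with WT crossed slides, and slide and group cannot be told apart in them.

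As a check, the CDK2 probe was 0.78 lower on the log2 scale in CDK2-/- than in WT (adjusted p = 0.000271, limma with Benjamini-Hochberg adjustment) and stayed above background on all 8 arrays. The epithelial genes EPCAM, KRT8, KRT18, CDH1, CDX1, CDX2 and LGALS4 were above background on all 8 arrays, VIL1 on none. Of 8 markers of other cells, COL3A1 was above background on no array, PECAM1 and DCN on 1, and CD3E on 4, whereas PTPRC, CD68, COL1A1 and ACTA2 were above it on all 8. Of these, CD68 (-1.40), COL1A1 (1.22), ACTA2 (0.69) and CD3E (0.96) differed between CDK2-/- and WT by the same test, and their part in the results was not tested. Replicates of a group correlated at 0.994 to 0.996 over the tested probes, and the median difference between replicates of a member probe was 0.0474 to 0.0539 on the log2 scale.

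Introns are removed by the spliceosome, which is assembled on each intron from small nuclear ribonucleoproteins. U2AF recognises the end of the intron, SF3A and SF3B hold the U2 particle at the branch point, and most PRPF proteins belong to the particles that join later and carry out the reaction. SR proteins bind exons and favour their inclusion, hnRNP proteins often oppose them, and CLK kinases phosphorylate SR proteins and thereby control where they reside and act. Many of these genes are spliced alternatively themselves, with transcript forms that keep an intron or gain an exon that leads to decay, and many end at more than 1 polyadenylation site, so probes of 1 gene need not report the same transcripts.

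Each probe is 60 bases long and reads the sense strand. The sequences of the CLK probes are shown because these genes gave the largest responses to NU6102. Capitals mark AATAAA, the usual polyadenylation signal, which was present in 10 of the 102 member probes (9.80%) and in 7.67% of the 28677 tested probes; its complement TTTATT was present in 2.94% and 3.53%. Coordinates are on hg19, as in the scanner files, and positions within a transcript are those of the array annotation. The first CLK1 probe begins at base 1351 of its transcript and crosses a splice junction at chr2:201718707-201719388 on the minus strand, the second begins at base 790 and lies at chr2:201725962-201726021, and the CLK2 probe lies at chr1:155235659-155235718 on the minus strand. Of CLK3 (chr15:74922387-74922446, plus strand) and CLK4 (chr5:178029994-178030053, minus strand) the last 30 bases are given.
CLK1, base 1351: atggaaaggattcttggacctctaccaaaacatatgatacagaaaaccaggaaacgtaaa
CLK1, base 790: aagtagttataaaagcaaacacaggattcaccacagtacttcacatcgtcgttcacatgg
CLK2: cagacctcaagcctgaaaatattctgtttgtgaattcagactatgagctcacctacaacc
CLK3, bases 31 to 60 of the probe: atatattgtaaagttatAATAAAgtgtttc
CLK4, bases 31 to 60 of the probe: tttgtttAATAAAaccacatacacacttta

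The next sequences belong to genes whose probes moved apart from each other in at least 1 comparison. For each gene the upstream probe stands first. Whole probes were picked by hand among those with a reading frame open over all 60 bases, and 30 bases are given elsewhere. SRSF7 was read at chr2:38976675-38976734 and chr2:38971218-38971277, HNRNPD at chr4:83275180-83275239 and chr4:83274857-83274916 and SF3A3 at chr1:38423677-38423731 and chr1:38422655-38422714, all on the minus strand. SRSF6 was read at chr20:42087885-42087944 and chr20:42092182-42092241, SRSF11 at chr1:70715651-70715710, HNRNPH3 at chr10:70101030-70101364 across a splice junction and at chr10:70102702-70102761, and PRPF4B at chr6:4056609-4056668 and chr6:4065127-4065186, all on the plus strand.
SRSF7, base 560: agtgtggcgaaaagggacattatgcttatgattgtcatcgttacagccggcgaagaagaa
SRSF7, base 1952, last 30 bases: gtaaatctcagctatatttagcaacactcc
SRSF6, base 518 of a non-coding transcript, last 30 bases: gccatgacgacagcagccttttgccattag
SRSF6, base 3683, last 30 bases: ctttaaatctcAATAAAatacttactgagg
SRSF11, base 1159: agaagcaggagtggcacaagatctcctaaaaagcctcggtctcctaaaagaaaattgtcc
HNRNPH3, base 967: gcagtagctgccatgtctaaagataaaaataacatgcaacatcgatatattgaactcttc
HNRNPH3, base 2160, first 30 bases: tgtcatagtcAATAAAaacaatcctgcagt
HNRNPD, base 1484, last 30 bases: gaatggaagtatgacgttgggtccctctga
HNRNPD, base 1807, last 30 bases: acatgattaaaattgcagtgaagtttgaaa
SF3A3, base 1751, last 30 bases: ttgcagggctgagatgtgttttatctgttt
SF3A3, base 2773, last 30 bases: cttcaactgttttttAATAAAtctactttt
PRPF4B, base 2611: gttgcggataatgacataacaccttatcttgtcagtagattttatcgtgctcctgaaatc
PRPF4B, base 7391, last 30 bases: agcagtgcatgtttctaattgacttactgg

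Levels below are log2 signals relative to the 75th percentile of the array, so a level of 0 equals that percentile, and they are compared only within a probe. A difference was called at an adjusted p under 0.05 over all 28677 tested probes. In the test of any difference among the 4 groups, 23 of the 102 member probes passed an adjusted p of 0.001, a share of 22.5% beside 21.1% of all tested probes. This count fell to between 0 and 5 when any 1 of the 8 arrays was left out, the count of 0 arising without either WT+NU6102 array. The CLK kinases supplied 4 of the 23 from 5 probes.

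Exposure of WT cells to NU6102 for 24 h raised CLK1, CLK3 and CLK4, lowered SRSF7, SRSF5 and PRPF40B, and raised 7 of the 11 probes for SF3A and SF3B subunits. In all, 36 of the 102 member probes were higher and 16 lower than in WT. The background over all tested probes was 23.6% higher and 21.1% lower, beside 35.3% and 15.7% of the member probes. With quantile normalization the split was 32 higher and 25 lower, and the median of the member probes changed from 0.10 to -0.03 while that of all probes stayed at 0.03. At a change of at least 1 on the log2 scale as well, 4 member probes were higher and 1 lower, against 1.27% and 5.22% of all tested probes.

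The CLK genes encode dual-specificity kinases that phosphorylate SR proteins. The CLK1 probe at base 1351 had levels of -0.99 and -0.93 in WT and 0.77 and 0.62 in WT+NU6102. It read -0.78 and -0.82 in CDK2-/- and -1.15 and -0.94 in R50. Thus the treated arrays stood apart from the other 6, and the rise over WT was 1.65 ± 0.09 (SE, n = 2 per group), or 3.15-fold, by limma (adjusted p = 0.000189). The CLK1 probe at base 790 went from -1.78 and -1.86 in WT to -0.69 and -0.57 in WT+NU6102, a rise of 1.19 ± 0.06 (limma, adjusted p = 0.000182). The gap of 0.47 ± 0.14 between the rises of the 2 CLK1 probes did not pass the test over all genes with several probes (limma, adjusted p = 0.0677).

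CLK3 read 1.54 and 1.43 in WT and 3.04 and 3.02 in WT+NU6102, a rise of 1.54 ± 0.07, or 2.92-fold (limma, adjusted p = 0.000121). CLK4 read -2.59 and -2.61 in WT and -1.44 and -1.45 in WT+NU6102, a rise of 1.16 ± 0.07, or 2.23-fold (limma, adjusted p = 0.000236). The CLK1, CLK3 and CLK4 calls held under all 18 alternatives run for each probe. CLK2 did not pass: its WT levels were -0.87 and -0.83, while the WT+NU6102 arrays read 0.17 and -0.86, so 1 treated array was more than 1 unit higher and the other lay on the WT level. Its mean rise of 0.51 ± 0.31 (limma, adjusted p = 0.242) was 1.02 without WT+NU6102 replicate 2 and -0.01 without WT+NU6102 replicate 1, and it was called in 1 of the 8 fits that left out an array.

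**Figure D1:**
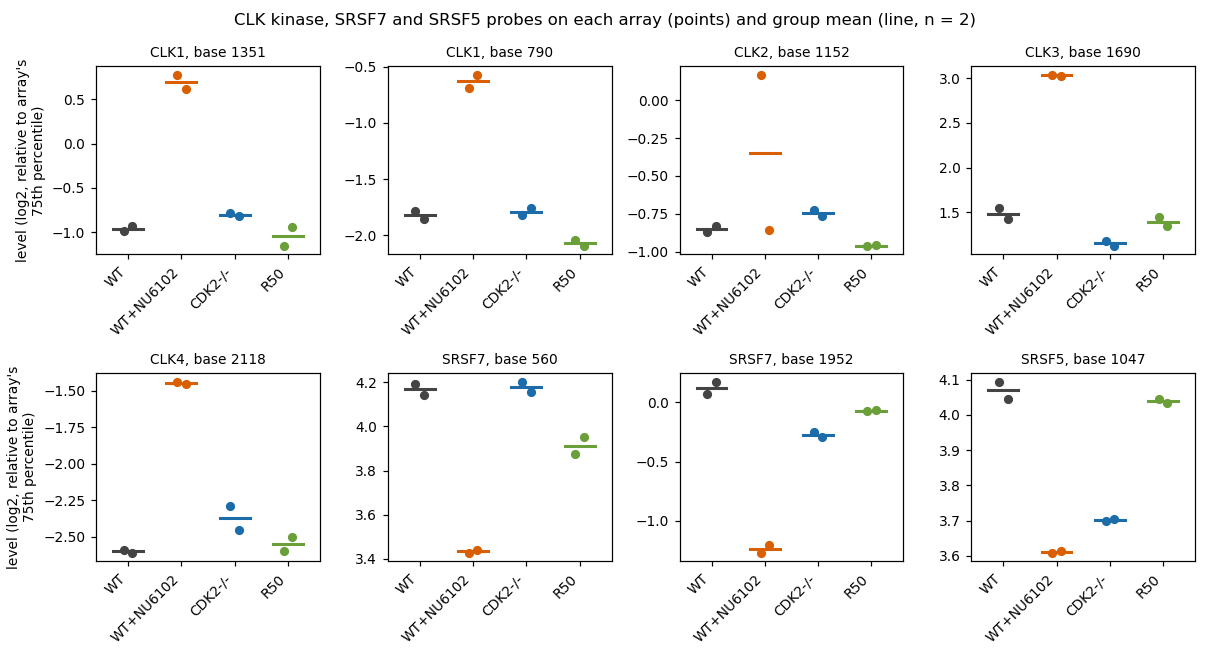
Levels (log2, relative to the 75th percentile of each array) of the CLK, SRSF7 and SRSF5 probes on every array, with points for arrays and lines for group means (n = 2); the vertical scale differs between panels. WT+NU6102 stands above the other groups for CLK1, CLK3 and CLK4 and below them for SRSF7, and the 2 WT+NU6102 points of CLK2 lie apart, at 0.17 and -0.86.

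Because CLK1 and CLK4 rose together, the 250 bases before their annotated starts are shown from RefSeq (GRCh38.p14, minus strand, chr2:200864659-200864908 for the more upstream of the CLK1 starts and chr5:178627051-178627300 for CLK4). In all, 5 short motifs were sought on both strands: TGACG (complement CGTCA, the half-site of the cAMP response element), the E-box CACGTG, which can overlap the first, the CCAAT box, the GC box GGGCGG and the TATA box TATAAA. Capitals mark TGACG or CGTCA, which was added to the search after it had been noticed in the CLK sequences, so its presence there is a description only. It was found before both CLK1 starts, the CLK4 start and 1 of the 2 CLK3 starts, not before the CLK2 start, and before 21.2% of the 35116 annotated starts in the table. The stretches before the CLK1 starts overlap, and the site marked for CLK1 lies in both. CACGTG was found before CLK2 and CLK4 (6.34% of all starts) and GGGCGG before all but 1 of the CLK starts (42.6%). CCAAT (32%) was found before the other CLK3 start and TATAAA (10.7%) before none of them. A match describes these letters and not a bound site.
CLK1, 250 bases: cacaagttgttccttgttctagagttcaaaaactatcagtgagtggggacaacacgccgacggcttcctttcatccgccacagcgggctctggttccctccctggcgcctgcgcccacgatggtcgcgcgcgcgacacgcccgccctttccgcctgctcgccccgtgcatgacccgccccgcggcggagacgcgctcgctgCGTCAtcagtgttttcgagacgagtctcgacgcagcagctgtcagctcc
CLK4, 250 bases: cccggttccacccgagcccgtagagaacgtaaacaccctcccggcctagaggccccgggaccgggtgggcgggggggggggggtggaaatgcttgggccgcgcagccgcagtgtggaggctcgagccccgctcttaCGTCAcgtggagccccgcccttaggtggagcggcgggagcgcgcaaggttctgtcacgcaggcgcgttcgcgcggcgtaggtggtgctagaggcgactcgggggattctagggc

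SR proteins did not move as a group with NU6102: of 20 probes, 5 were higher and 6 lower (25% and 30%, beside 23.6% and 21.1% of all tested probes), with a median of -0.01 (0.03 over all probes). The median was 0.00 in the authors' processed values and -0.10 with quantile normalization. SRSF7, an SR protein with a zinc knuckle, gave the largest fall with NU6102 of any member. Its probe at base 1952 read 0.07 and 0.17 in WT and -1.27 and -1.20 in WT+NU6102, a change of -1.35 ± 0.06, which left 0.391 of the WT level (limma, adjusted p = 0.000121). The probe at base 560 read 4.19 and 4.14 in WT and 3.43 and 3.44 in WT+NU6102, a change of -0.73 ± 0.05 (limma, adjusted p = 0.000338). Both were called under all 18 alternatives, and the downstream probe fell further, by a difference of -0.62 ± 0.08 between the probes (limma, adjusted p = 0.00619).

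SRSF5 was read by a pair of overlapping probes that share a run of 46 bases, so they measure nearly the same fragment. Its levels were 4.09 and 4.05 in WT and 3.61 and 3.61 in WT+NU6102 on the first of them. The changes were -0.46 ± 0.04 and -0.42 ± 0.05 (limma, adjusted p = 0.000791 and 0.0013). SRSF1, the founding SR protein, was lower by -0.33 ± 0.08 on a single probe at base 5473 (limma, adjusted p = 0.0207), a call that was lost without WT replicate 2 or WT+NU6102 replicate 2. SRSF2, SRSF3 and SRSF4 had changes between -0.02 and 0.13 over 5 probes, and none was called.

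The probes of 3 other SR genes moved apart under NU6102. SRSF6 was 0.27 higher on its main probe, but the probe of a transcript annotated as non-coding read -1.06 and -1.61 in WT and -1.96 and -2.14 in WT+NU6102, a change of -0.72 ± 0.19 (limma, adjusted p = 0.0289). The difference between the 2 SRSF6 probes was 0.98 ± 0.23 (limma, adjusted p = 0.0394), and the call on the non-coding transcript held in 3 of 8 fits that left out an array. SRSF11 was higher by 0.42 and 0.37 on its downstream probes, while the probe at base 1159 of another transcript changed by -0.05 and was not called; it differed from the others by -0.45 ± 0.06 (limma, adjusted p = 0.00718). SRSF10 was higher by 0.37 on 1 probe, and its other probes, at 0.16 and -0.07, were not called. The files place the first and second on an unlocalised contig of chromosome 1.

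Among the hnRNP genes, 11 of 42 probes were higher and 4 lower with NU6102 (26.2% and 9.52%, beside 23.6% and 21.1% of all tested probes). HNRNPU, a scaffold protein of the nucleus that also binds pre-mRNA, read 4.36 and 4.27 in WT and 5.04 and 5.09 in WT+NU6102, a rise of 0.75 ± 0.05 on its probe at base 2568 (limma, adjusted p = 0.000321). Its probe at base 5770 differed by 0.28 ± 0.11 and was not called (limma, adjusted p = 0.094), and the difference of -0.46 ± 0.12 between the probes was not called either (limma, adjusted p = 0.0598). HNRNPAB rose by 0.72 ± 0.08 (limma, adjusted p = 0.00118) and HNRNPA0 by 0.50 ± 0.07 (limma, adjusted p = 0.00349). HNRNPA1, the archetypal splicing repressor of the family, had changes of -0.10, -0.07 and -0.00 on its 3 probes, none of them called. HNRNPA1L2 and HNRNPCL1 are near-copies of HNRNPA1 and HNRNPC, and their probes cannot be assigned to the copy with certainty.

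HNRNPH3 moved in opposite directions on its 2 probes with NU6102. The probe at base 967 read 1.73 and 1.59 in WT and 2.16 and 2.12 in WT+NU6102, a rise of 0.48 ± 0.08 (limma, adjusted p = 0.0057). The probe at base 2160 read 1.99 and 1.99 in WT and 1.62 and 1.64 in WT+NU6102, a change of -0.36 ± 0.04 (limma, adjusted p = 0.0016). The groups did not overlap on either probe, but of all tested probes 39.4% lay wholly above WT and 34.7% wholly below it. The difference between the probes was -0.84 ± 0.09 (limma, adjusted p = 0.00345). HNRNPA2B1 had changes of -0.51, -0.22 and 0.09 on its 3 probes, none of them called, while the last, at base 1075, differed from the others by 0.45 ± 0.10 (limma, adjusted p = 0.0364). HNRNPC rose on its 3 probes, by 0.26, 0.23 and 0.58; the files place the first of these at chromosome 2, away from the other 2 on chromosome 14, and the third shares a run of at least 20 bases with a DDTL probe.

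The U2AF and SF3 genes act at the end of the intron. U2AF1, the small subunit of U2AF, rose by 0.60 ± 0.05 and 0.51 ± 0.07 on its 2 probes with NU6102 (limma, adjusted p = 0.00041 and 0.00195). Its main probe read 6.40 and 6.26 in WT and 6.81 and 6.88 in WT+NU6102. U2AF2, the large subunit, differed by 0.11 ± 0.05 (limma, adjusted p = 0.155), and U2AF1L4 was lower by -0.37 ± 0.09 (limma, adjusted p = 0.0186), a call that was lost without either WT array.

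Of 11 SF3A and SF3B probes, 7 were higher and 0 lower with NU6102 (63.6% and 0%, against 23.6% and 21.1% of all tested probes), with a median of 0.39 that was 0.20 with quantile normalization. SF3B4 read -0.31 and -0.37 in WT and 0.36 and 0.46 in WT+NU6102, a rise of 0.75 ± 0.06 (limma, adjusted p = 0.000377). The others called were SF3A1, both probes of SF3A3, SF3B14 (now SF3B6), SF3B2 and SF3B5, with rises of 0.28 to 0.59. SF3B1, the subunit that contacts the branch point, was not called, with 0.83 and 0.83 in WT and 0.75 and 0.68 in WT+NU6102 and a change of -0.12 ± 0.08 (limma, adjusted p = 0.305). SF3A2 and SF3B3 were not called either.

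Of 20 PRPF probes, 7 were higher and 5 lower with NU6102 (35% and 25%, beside 23.6% and 21.1% of all tested probes). PRPF40B, a protein associated with the U1 particle, read -1.003 and -1.05 in WT and -1.85 and -1.78 in WT+NU6102, a change of -0.79 ± 0.06 (limma, adjusted p = 0.000353). Its other probe gave -0.72 ± 0.12 (limma, adjusted p = 0.00584). PRPF4B (now PRP4K), a kinase of the spliceosome related to the CLKs, changed by -0.37 ± 0.07 and -0.55 ± 0.15 on its first and last probes (limma, adjusted p = 0.00665 and 0.0271), and PRPF39 by -0.47 ± 0.09 (limma, adjusted p = 0.0101). The last PRPF4B call was lost without either WT array or WT+NU6102 replicate 2, and the PRPF39 call without WT replicate 2. Both probes of PRPF31, 1 of the 2 of PRPF18, and those of PRPF4, PRPF8 and PRPF3, which act in the later particles or steps, were higher by 0.19 to 0.41. The PRPF3 and PRPF8 calls held in 1 and 4 of the 8 fits without 1 array.

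**Figure D2:**
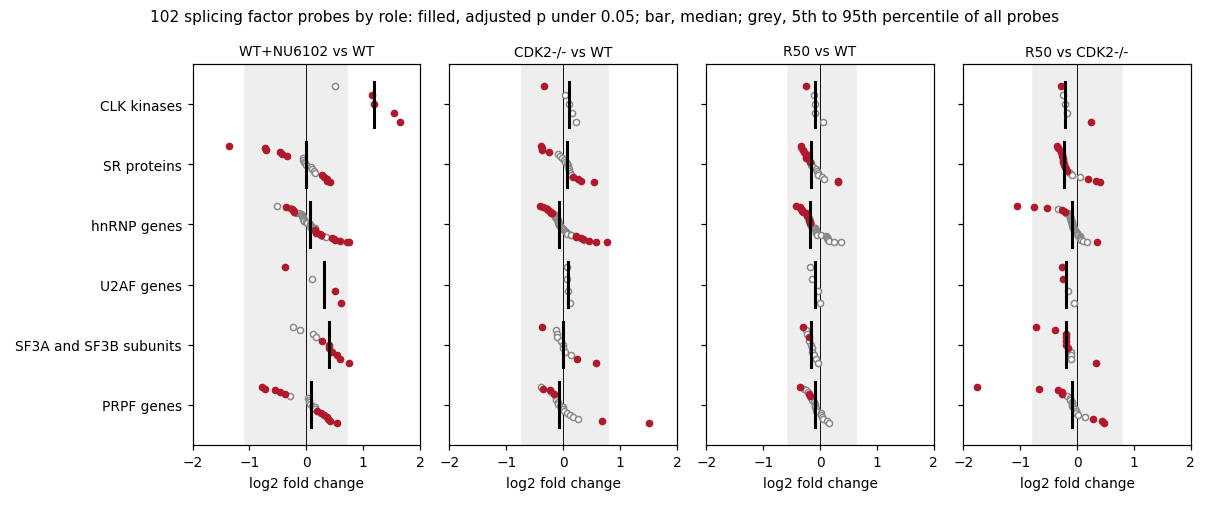
Log2 fold change of the 102 tested member probes in the 4 comparisons, grouped by role; filled points had an adjusted p under 0.05, black bars are medians, and the grey band spans the 5th to 95th percentile of all tested probes. The CLK probes stand right of the band only with NU6102, except CLK2 at 0.51, and the SRSF7 probe at -1.35 stands left of it.

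Between CDK2-/- and WT, 15 of 102 member probes were higher and 15 lower (14.7% each), beside 15.8% and 15.3% of all tested probes. The median size of the change was 0.12 for the member probes and 0.21 for all probes. Leaving out either WT array or either CDK2-/- array, which leaves 1 array in a group, lowered both counts. The shares over all tested probes fell in those fits too. Only 1 member probe was called higher with a change of at least 1 and 0 lower, beside 2.44% and 2.3% of all tested probes.

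HNRNPD, an hnRNP that binds AU-rich elements and controls mRNA decay, differed between its 2 probes in CDK2-/-. Its probe at base 1807 read 0.32 and 0.33 in WT and 1.03 and 1.14 in CDK2-/-, a rise of 0.76 ± 0.06 (limma, adjusted p = 0.0007). Its probe at base 1484 read 6.36 and 6.28 in WT and 6.11 and 6.14 in CDK2-/-, a change of -0.19 ± 0.05 (limma, adjusted p = 0.0325), called in 0 of the 8 fits without 1 array. The difference was 0.96 ± 0.07 (limma, adjusted p = 0.00241).

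SF3A3 read 4.30 and 4.56 in WT and 4.98 and 5.03 in CDK2-/- at base 2773, a rise of 0.58 ± 0.10 (limma, adjusted p = 0.00932) that was not called without CDK2-/- replicate 2. At base 1751 the change was -0.11 and not called. PRPF4B read 0.84 and 0.99 in WT and 1.70 and 1.49 in CDK2-/- at base 7391, a rise of 0.68 ± 0.15 (limma, adjusted p = 0.0197) that was lost without either WT array or CDK2-/- replicate 1, whereas its probes at bases 2611 and 2792 changed by -0.12 and -0.21. The HNRNPH3 probe at base 2160 rose by 0.34 ± 0.04 (limma, adjusted p = 0.00348), against -0.01 at base 967.

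HNRNPA3 had 6 probes, which spread over its long transcript. At base 5042 it rose by 0.45 ± 0.09 in CDK2-/- (limma, adjusted p = 0.0158), from 0.54 and 0.55 to 1.01 and 0.98, a call that held in 4 of 8 fits without 1 array. At base 2828 it fell, from 2.08 and 2.12 to 1.72 and 1.67, by -0.40 ± 0.05 (limma, adjusted p = 0.00258). The 4 probes further upstream were not called, with changes from -0.24 to 0.06. The called probes of HNRNPA3 thus had opposite signs, and the one that fell lies between the upstream probes and the one that rose.

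There were 20 member genes with at least 2 tested probes on 1 annotated transcript, and for each the change on the most downstream probe was set against that on the most upstream probe, a comparison chosen after the data were seen. In CDK2-/- against WT the downstream probe was higher in 7 of the 20 genes and lower in 1 (limma, adjusted p under 0.05 over 3574 such genes), beside 11.4% higher and 2.49% lower over all those genes. The 7 included HNRNPD, PRPF4B, SF3A3, HNRNPA3, HNRNPH3 and HNRNPC, and the 1 was HNRNPU-AS1. The count of 7 was 3 and 4 without WT replicates 1 and 2, and 3 and 2 without CDK2-/- replicates 1 and 2, while all 3574 genes gave 5.37% to 7.02% in those fits. HNRNPD was called in all 8 fits without 1 array. The upstream HNRNPC probe is the one placed on chromosome 2. The median difference was 0.07 for the 20 and 0.08 for all 3574 genes, so the member genes did not stand apart in the median. No SR gene was among the 7, but of SR genes the 20 held only SRSF2, SRSF3, SRSF5 and SRSF11. SRSF2 and SRSF3 differed by 0.16 and 0.20, and neither was called. The compared probes of SRSF5 and SRSF11 start 14 and 189 bases apart. SRSF7 was outside the 20, as its probes are annotated to different transcripts. Its downstream less upstream difference was -0.41 ± 0.08 in CDK2-/- against WT and 0.47 ± 0.08 in R50 against CDK2-/- (limma over genes with several probes, adjusted p = 0.026 and 0.0208).

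**Figure D3:**
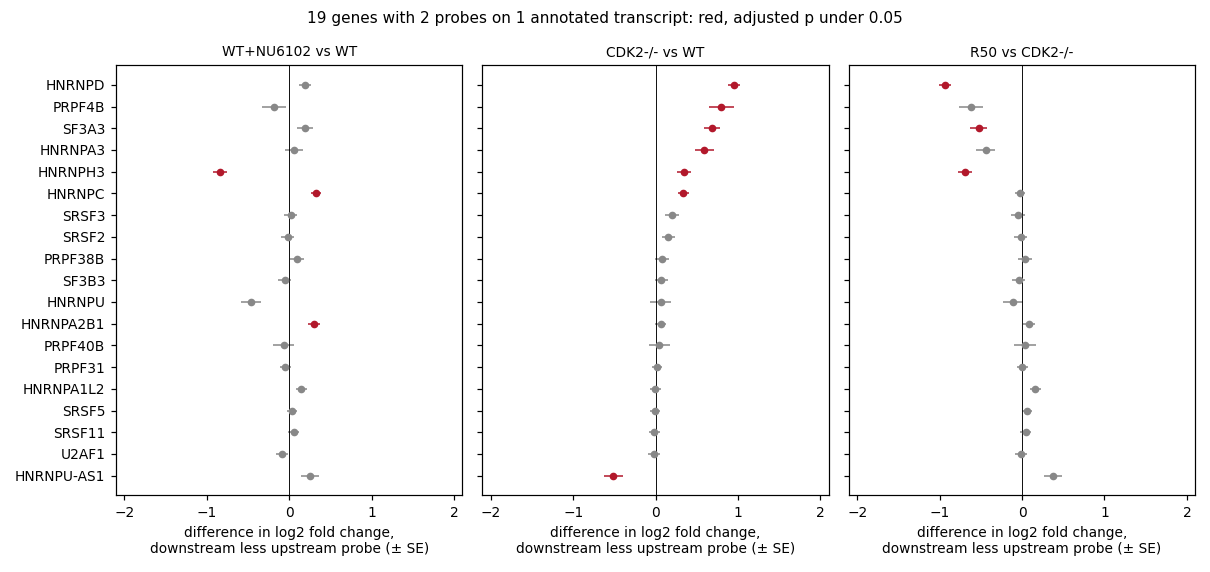
Difference in log2 fold change between the most downstream and the most upstream probe on the same annotated transcript, for 19 of the 20 member genes, with bars of ± 1 SE; red points had an adjusted p under 0.05. In CDK2-/- against WT the red points right of 0 run from 0.34 for HNRNPC to 0.96 for HNRNPD, and in R50 against CDK2-/- HNRNPD, HNRNPH3 and SF3A3 lie left of 0 in red.

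The same genes can be read within a slide, since R50 and CDK2-/- were on the same one, although this comparison shares the CDK2-/- arrays with the last. Here the downstream probe was lower in R50 in 4 of the 20 genes and higher in 0, beside 6.8% and 3.5% of all 3574 genes. The 4 included HNRNPD with a difference of -0.93 ± 0.07, HNRNPH3 with -0.69 ± 0.08 and SF3A3 with -0.53 ± 0.10 (limma, adjusted p = 0.00216, 0.00776 and 0.0292). The count of 4 was 2 without CDK2-/- replicate 1, with HNRNPD still called. With NU6102 it was higher in 2 of the 20 genes, HNRNPC and HNRNPA2B1, and lower in 1, HNRNPH3, beside 3.83% and 10.6% of all 3574 genes. The 2 became 0 without any WT or WT+NU6102 array and 1 without any other array. Against WT, no member gene passed this test in R50, beside 2.46% higher and 0.644% lower over all such genes. The median difference in R50 against WT was 0.07 for the 20 member genes and 0.07 for all 3574. In CDK2-/- against WT these medians were 0.07 and 0.08, and both comparisons cross slides. At the single probe, R50 lay below CDK2-/- by -1.06 ± 0.06 for HNRNPD at base 1807 (limma, adjusted p = 0.000229). It lay lower by -0.76 ± 0.04 for HNRNPH3 at base 2160 and by -0.73 ± 0.10 for SF3A3 at base 2773 (limma, adjusted p = 0.00023 and 0.00372). For PRPF4B at base 7391 the change was -0.66 ± 0.15 (limma, adjusted p = 0.0194), called in 5 of 8 fits without 1 array, and for HNRNPA3 at base 5042 it was -0.52 ± 0.09 (limma, adjusted p = 0.00863).

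**Figure D4:**
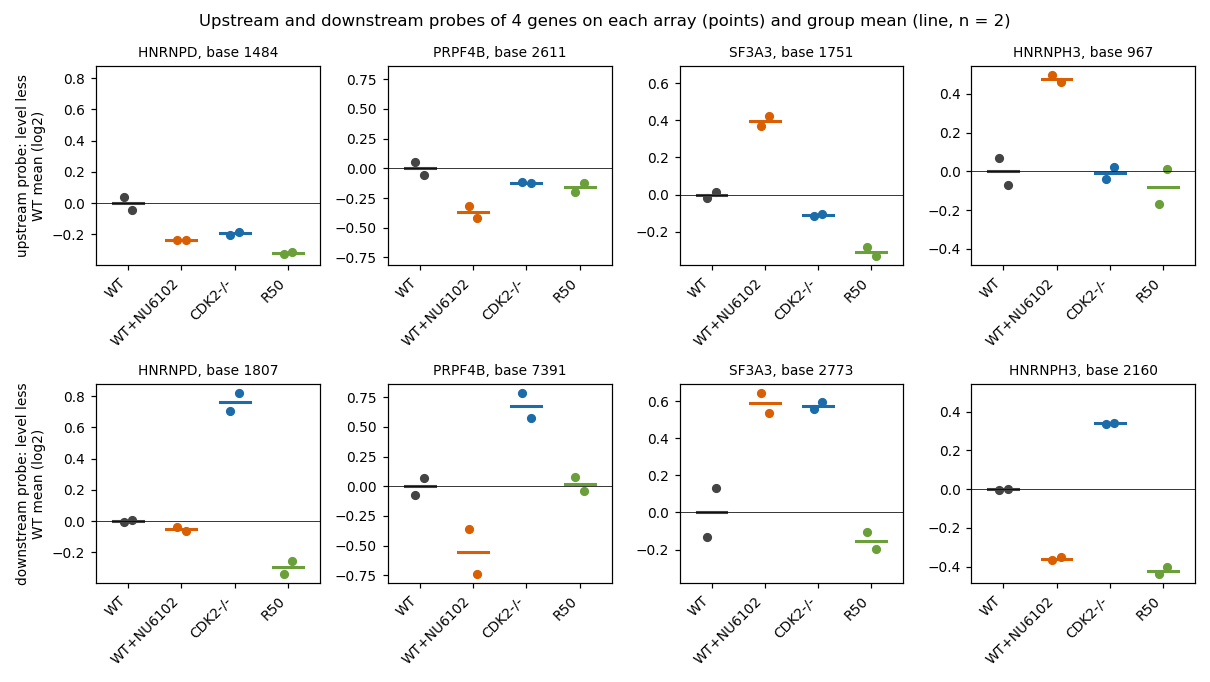
Levels less the WT mean (log2) of the upstream (top) and downstream (bottom) probes of 4 member genes on every array, with points for arrays and lines for group means (n = 2). In the downstream row the CDK2-/- points lie above those of WT and R50 in all 4 genes, as for HNRNPD, 0.76 above WT, while the upstream probe means of CDK2-/- lie between -0.19 and -0.01 of the WT mean.

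A few other members differed between CDK2-/- and WT. SRSF1 read -0.72 and -0.54 in WT and -0.04 and -0.14 in CDK2-/-, a rise of 0.54 ± 0.08 (limma, adjusted p = 0.00605). SRSF5 went from 4.09 and 4.05 to 3.70 and 3.71, a change of -0.37 ± 0.04 (limma, adjusted p = 0.00291), and the downstream SRSF7 probe changed by -0.39 ± 0.06 (limma, adjusted p = 0.00536) while the upstream SRSF7 probe differed by 0.01. SF3A1 changed by -0.37 ± 0.05 (limma, adjusted p = 0.00379) and HNRNPU by -0.36 ± 0.05 at base 2568 (limma, adjusted p = 0.00522), against -0.30 ± 0.11 at base 5770, which was not called (limma, adjusted p = 0.106). HNRNPU-AS1 was higher by 0.57 ± 0.14 at base 834 (limma, adjusted p = 0.031), a call that held in 2 of 8 fits without 1 array, and differed by 0.06 at base 4984, which was not called. Of the CLK kinases only CLK3 was called, from 1.54 and 1.43 to 1.18 and 1.13, by -0.33 ± 0.07 (limma, adjusted p = 0.0151), and this was lost without WT replicate 1 or either CDK2-/- array. Both U2AF1 probes, U2AF2 and SF3B1 were not called, with changes between -0.13 and 0.09.

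In R50 cells, which grew in NU6102, the CLK probes lay near their WT levels. R50 was not tested against WT+NU6102. WT and WT+NU6102 are both on the other slide, so the comparison with WT crosses slides too. CLK1 read -1.15 and -0.94 on its main probe against -0.99 and -0.93 in WT, CLK3 read 1.45 and 1.34 against 1.54 and 1.43, and CLK4 -2.60 and -2.50 against -2.59 and -2.61, so the groups overlapped for CLK1, CLK3 and CLK4. The changes from WT were between -0.25 and 0.05 over the 5 CLK probes, and only the CLK1 probe at base 790 was called, by -0.25 ± 0.06 (limma, adjusted p = 0.0446), in 0 of 8 fits without 1 array. SRSF7 was lower by -0.25 ± 0.05 at base 560 (limma, adjusted p = 0.0232) and by -0.19 at base 1952, which was not called.

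Over all members, 24 of 102 probes were lower in R50 than in WT and 2 higher (23.5% and 1.96%), beside 12.8% lower and 9.78% higher over all tested probes. The changes were small: the median was -0.15 for the member probes and -0.04 for all, and no member was called with a change of at least 1 in either direction (1.64% of all probes higher and 0.952% lower). The count of 24 was 4 without WT replicate 1 or 2, 5 and 11 without R50 replicates 1 and 2, 13 without either CDK2-/- array, 14 without either WT+NU6102 array, and 14 with quantile normalization, and the count of 2 was 0 without either WT array and 1 without any other. With quantile normalization 14 of 102 member probes were lower and 2 higher, beside 12.2% and 10.4% of all tested probes. The medians under that setting were -0.10 for the member probes and -0.03 for all. In the fits without 1 array, the share of all tested probes that were lower fell too. The member share lay slightly below it without either WT array or R50 replicate 1, and above it in the other fits. The groups are on different slides. The lower probes were 7 of 20 for SR proteins, 11 of 42 for hnRNP genes, 2 of 11 for SF3, 3 of 20 for PRPF and 1 of 5 for CLK.

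The largest called falls in R50 against WT were those of HNRNPH3 at base 2160 (-0.42 ± 0.04), PRPF4 (-0.36 ± 0.06), HNRNPA1L2 at base 1369 (-0.35 ± 0.06), HNRNPA1 at base 443 (-0.34 ± 0.09) and SRSF4 (-0.33 ± 0.05). HNRNPH3 read 1.55 and 1.59 in R50 against 1.99 and 1.99 in WT (limma, adjusted p = 0.00321), and it was the only one of these called in all 8 fits without 1 array. SRSF4 was also lower in CDK2-/- than in WT, by -0.25 ± 0.05 (limma, adjusted p = 0.0131), whereas HNRNPH3 at base 2160 was higher there. The 2 probes higher in R50 were SRSF8 and SRSF1. SRSF8 read 1.17 and 1.09 against 0.81 and 0.82, a rise of 0.32 ± 0.05 (limma, adjusted p = 0.0102). It was also higher in CDK2-/- than in WT, by 0.26 ± 0.05 (limma, adjusted p = 0.0125), and R50 against CDK2-/- was not called (0.06 ± 0.05). SRSF1 read -0.33 and -0.32 against -0.72 and -0.54, a rise of 0.31 ± 0.08 (limma, adjusted p = 0.047). The SRSF1 call was lost in all 8 fits without 1 array.

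Within the slide, R50 lay below CDK2-/- in 32 member probes and above it in 9 (31.4% and 8.82%), beside 19.3% and 15.2% of all tested probes. Of the 32, 2 had a change of at least 1, among them the downstream probe of HNRNPD (2.36% of all tested probes lower, 2.85% higher), and 0 of the 9 did. SR proteins had 12 of 20 probes lower and 3 higher, with a median of -0.23, and SF3 subunits 7 of 11 lower and 1 higher. Both counts fell without any 1 of the CDK2-/- or R50 arrays, fits that leave 1 array in a group. The shares of all tested probes fell too. The member share lower than CDK2-/- then exceeded that of all tested probes only without CDK2-/- replicate 2. It lay below that of all tested probes in the other fits of this kind. The member share higher stayed below that of all tested probes. SRSF2 changed by -0.25 ± 0.04 and -0.27 ± 0.07 on its 2 probes, SRSF3 by -0.19 ± 0.05 and -0.24 ± 0.06, and U2AF1 by -0.24 ± 0.05 and -0.26 ± 0.07, all called by limma at adjusted p between 0.00911 and 0.0422.

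The probes higher in R50 than in CDK2-/- included both of SRSF5, with 4.04 and 4.03 against 3.70 and 3.71 on the main probe and a difference of 0.34 ± 0.04 (limma, adjusted p = 0.00335). PRPF40B was higher on both probes too, by 0.47 ± 0.06 and 0.44 ± 0.12 (limma, adjusted p = 0.00247 and 0.0434), the second call holding in 1 of 8 fits without 1 array. SF3A1 was higher by 0.33 ± 0.05 (limma, adjusted p = 0.00499), CLK3 by 0.24 ± 0.07 (limma, adjusted p = 0.0367) and HNRNPA3 at base 2828 by 0.34 ± 0.05 (limma, adjusted p = 0.00379). The main probes of SRSF5, PRPF40B and SF3A1, CLK3 and the HNRNPA3 probe at base 2828 were also called lower in CDK2-/- than in WT, and both comparisons use the same CDK2-/- arrays.

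Probes of a gene were compared directly in the 27 member genes with at least 2 tested probes. A difference in effect was called in 9 genes with NU6102, 8 in CDK2-/-, 0 in R50 against WT and 7 in R50 against CDK2-/- (33.3%, 29.6%, 0% and 25.9%). Over all 5207 such genes the shares were 23.1%, 17.6%, 4.07% and 14.1%. The 9 genes with NU6102 were SRSF6, SRSF7, SRSF10, SRSF11, HNRNPA2B1, HNRNPA3, HNRNPC, HNRNPH3 and HNRNPK, and the count was 3 without either WT+NU6102 array, 3 and 4 without WT replicates 1 and 2, and 5 without either CDK2-/- array. The 8 in CDK2-/- became 3 without either CDK2-/- array and 5 and 4 without WT replicates 1 and 2, and the 7 in R50 against CDK2-/- became 2 without either CDK2-/- array and 4 without either R50 array. For 0 of 27 in R50 against WT, 3 genes were called after normexp background correction. Genes whose probes moved alike included U2AF1, PRPF31, PRPF40B and SRSF5, with differences between probes of at most 0.09 in size in each of the 4 comparisons. For PRPF40B the SE of these differences was 0.13. The SRSF5 probes share a run of 46 bases and could hardly have differed.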

How the data were processed

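Total RNA of 8 cultures (2 per group, labelled as biological replicates) was labelled with Cy3 and hybridised to 60-mer one-colour arrays. The scanner tables deposited by the authors hold an intensity per spot (Agilent Feature Extraction 11.5.1.1), already corrected for background by that software; the depth of an array has no counterpart in reads, and the 2 arrays per group limit the precision. The authors' processed values, deposited as log2 values centred on each probe, were used as an alternative only. Here, log2 of the processed intensity less the 75th percentile over all spots that are not controls was averaged over the spots of a probe, without spots marked as outliers. This basis of the percentile was chosen with the counts under it and under one without outlier spots both known (23 and 22 member probes in the test among the 4 groups). Probes that were flagged by the scanner software as clearly brighter than background on the 2 arrays of any group (28677) were fitted over all 8 arrays with limma 3.58.1 in R 4.3.3 (lmFit, eBayes, two-sided) and p-values adjusted by Benjamini-Hochberg over all of them; the test among the 4 groups used an adjusted p of 0.001, as the study's ANOVA did. For genes with several probes, the per-array difference between a probe and the mean of the other probes was fitted in the same way. Scripts were tested on simulated data. No p-value here covers differences between lines or slides, and the labels do not say how cultures were separated, so the spread may be partly technical.

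The members, gene lists and tests were chosen with earlier results of these data known. Values are given, not for every gene in every comparison, for CLK1 to CLK4, U2AF1, U2AF2, SRSF1 to SRSF7, SF3B1, HNRNPA1 and PRPF4B, for the largest called rises and falls per comparison (5 at most in each direction), and for the genes whose probes differed most (at most 5); other members with values were chosen after their values were seen. Through RefSeq accessions, 98 of the 100 member probes that carry one matched a current gene. Other settings tried were normexp (offset 50) in place of the scanner software's background, quantile normalization, 2 other filters on dim probes, the authors' values, a trended prior, a replicate block, leaving out each array, the methods' one-way ANOVA, a t-test, stricter thresholds, the arrays of 1 slide and, added after the data were seen, a percentile without outlier spots. The comparison of downstream with upstream probes, its fits without 1 array and 1 promoter motif were also chosen after the data or sequences were seen. Samples with the same replicate number did not deviate together (correlations of -0.03 to 0.05), so no block was used. Values of 1 member gene are not reported here, although it is counted among the members. Figures were drawn with matplotlib 3.10.9.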

Additional observations from a re-analysis of the deposited data

How the results depend on the processing

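For single probes, 0 of the comparisons with an alternative changed sign while called; 6163 stayed on their side of the threshold, 711 lost a call, 145 gained one and 121 uncalled values changed sign. The counts of member probes and genes moved more, and where not stated the cause was not tested. In the fits without 1 array, the shares of all tested probes called higher or lower fell too in each of the 4 comparisons. With each array left out in turn, which leaves fewer samples, the test among the 4 groups gave 0 to 5 probes. In those fits NU6102 gave 30 to 33 higher and 11 to 16 lower, CDK2-/- 5 to 13 and 7 to 13, R50 against WT 0 to 1 and 4 to 14, and R50 against CDK2-/- 5 to 8 and 9 to 25; genes with differing probes numbered 3 to 6, 3 to 6, 0 to 0 and 2 to 7. Normexp gave 40 probes in the test among the 4 groups and 15 and 3 genes with differing probes (NU6102, R50 against WT). Quantile normalization gave 25 lower with NU6102 and 14 lower in R50. Without a filter on dim probes, the test among groups gave 1. Percentages of all probes under that setting stand in brackets. NU6102 gave 10 lower (9.51%), CDK2-/- 5 higher and 7 lower (5.42% and 5.1%), and R50 0 and 1 (2.54% and 2.1%). R50 against CDK2-/- gave 5 and 8 (5.65% and 6.62%). Differing probes were called in 1, 2 and 2 genes (NU6102, CDK2-/-, R50 against CDK2-/-). With all 8 arrays above background, R50 against WT had 1 such gene. A trended prior gave 58 among groups and 4 higher and 44 lower in R50. A replicate block, for numbers that do not pair the samples, gave 5 among groups and 1 higher and 14 lower in R50, and changed the other counts by at most 1.5 times. A change of at least 1 as well left 4 higher and 1 lower with NU6102, 1 and 0 in CDK2-/-, 0 and 0 in R50, and 0 and 2 in R50 against CDK2-/-, and an adjusted p of 0.01 left 3, 3 and 3 genes with differing probes. The methods' t-test with Benjamini-Hochberg adjustment gave 8 lower with NU6102, 4 higher and 1 lower in CDK2-/-, 0 and 0 in R50, and 1 and 4 in R50 against CDK2-/-, and the one-way ANOVA gave 10. With only the arrays of 1 slide, NU6102 had 9 lower and 3 genes with differing probes, and R50 against CDK2-/- had 5 higher, 12 lower and 2 such genes. Only 2 arrays per group limit all these counts.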

Other observations

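Genes that work with the SR and hnRNP factors were read from 4 lists on the brightest probe of each gene, with 24.2% of all 21595 genes higher and 21.1% lower under NU6102 by the same limma test. The snRNP core list also holds other splicing factors, such as SF1, PUF60 and RBM17. Of its 37 tested genes, 26 were higher and 1 lower with NU6102, with a median of 0.38 on the log2 scale. The highest was SNRPA1, a protein of the U2 particle, at 0.83 ± 0.07 (limma, adjusted p = 0.00053). Of 27 genes of the PRP19 complex and the late spliceosome, 19 were higher and 3 lower, and of 18 genes of the exon junction complex and nonsense-mediated decay 12 were higher and 1 lower, with SMG9, a regulator of the decay kinase SMG1, at 1.13 ± 0.08 (limma, adjusted p = 0.000334). Of 52 other splicing regulators, 24 were higher and 10 lower. ESRP1, the regulator of epithelial exon choice, was the lowest of these at -0.95 ± 0.06 (limma, adjusted p = 0.000271), and the SR protein kinases SRPK1 and SRPK2, named after their values were seen, were at 0.29 ± 0.04 and 0.47 ± 0.09 (limma, adjusted p = 0.00364 and 0.00798).

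In R50 against WT, 0 of the 37 genes of the snRNP core list were higher and 19 lower, with a median of -0.21. Of all genes, 10.3% were higher and 12.9% lower. The list counts were not run under other settings or without single arrays, and R50 and WT were on different slides. The late spliceosome list had 1 higher and 7 lower, the other regulators 3 and 13, and the decay list 0 and 3. In CDK2-/- against WT the snRNP cores had 2 higher and 5 lower, the late spliceosome list 3 and 6, the other regulators 10 and 7 and the decay list 1 and 0, beside 16.3% and 15% of all genes. RBM17, a factor in splice site choice, was the highest of the snRNP list there at 0.92 ± 0.05 (limma, adjusted p = 0.000196), and R50 lay below CDK2-/- by -0.93 ± 0.05 (limma, adjusted p = 0.000167). MBNL2, of the muscleblind family, was lower with NU6102 (-0.76 ± 0.07) and in CDK2-/- (-0.74 ± 0.07) and higher in R50 than in WT (0.46 ± 0.07), with limma adjusted p = 0.000705, 0.00129 and 0.0102. MBNL1, of the same family, was lower in R50 than in WT by -0.68 ± 0.08 (limma, adjusted p = 0.00489). It was lower in CDK2-/- than in WT as well, by -0.66 ± 0.08 (limma, adjusted p = 0.00298). Between R50 and CDK2-/- it differed by -0.02 ± 0.08 and was not called (limma, adjusted p = 0.902). In R50 against CDK2-/- the snRNP cores had 0 higher and 19 lower, the late spliceosome list 4 and 7, the other regulators 4 and 20 and the decay list 0 and 5, beside 15.3% and 19.6% of all genes.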
